A study of Mus musculus with 52 samples.

Results

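Insulin and the insulin-like growth factors (IGFs) act through paired receptor tyrosine kinases, and 10 genes of this system were followed through RNA sequencing of a mouse kidney cell line. They were the IGF binding proteins Igfbp2, Igfbp3, Igfbp4, Igfbp5, Igfbp6 and Igfbp7, the IGF1 receptor Igf1r, the insulin receptor Insr, and the insulin receptor substrates Irs1 and Irs2. The genes were chosen by name, as 10 of the 24421 gene symbols in the count tables. Of these, 6 had enough counts to be tested, among 13994 genes tested in all, while Igfbp2, Igfbp3, Igfbp4 and Igfbp5 had not.

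The data comprised 52 libraries under 13 clone labels, with 4 technical replicate libraries for each. The cells were Cilia-APEX-IMCD3, a derivative of the mouse inner medullary collecting duct line IMCD3. Each label is 1 clone in 1 state and is called a clone here. The study's methods describe 4 control and 3 mutant clones, so the 13 are not 13 independent clones. The ciliated groups were the control clones D8, H12, A4 and G7 and the mutant clones WDR341, WDR343 and WDR60, here called Wdr34 mutant 1, Wdr34 mutant 3 and the Wdr60 mutant. The non-ciliated groups were the control clones AB, 1, 2 and 3 and the mutant clones W34 and W60, here the Wdr34 and Wdr60 mutants. Mutants carry homozygous missense changes, made by cytosine base editing with BE4-Gam, in Wdr34 or Wdr60, the intermediate chains of the ciliary motor dynein-2, and each mutant line is a single sorted clone. The study's text also describes unintended heterozygous changes. These are a missense change in the Wdr34 line that was not sequenced non-ciliated, and a synonymous change in the Wdr60 line. By the study's methods, controls had received the editor and a guide vector with no target sequence, so all clones would share exposure to the editor. Labels of the non-ciliated controls 1, 2 and 3 carry the prefix BE of the non-ciliated mutants, whereas that of AB does not. The labels give no allele for either ciliated Wdr34 clone, and list 10% fetal bovine serum as the medium of all libraries, whereas the study's methods describe starvation medium for ciliated cells. Cilia, serum and the time of sequencing differ together between the states and cannot be told apart. The labels do not pair clones between states. The study's text, however, describes 1 Wdr60 mutant clone and 2 Wdr34 ones, of which 1 was sequenced non-ciliated. Mutant lines are therefore shared between the states, and control clones may be. All fits took the 13 as separate and paired none between states, so p-values of the state comparisons ignore this sharing. A genotype cannot be told apart from its clone.

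IGF binding proteins are secreted proteins that hold IGF1 and IGF2 in the extracellular space and set how much ligand reaches its receptor, with IGFBP7 binding IGFs weakly and also occurring in the matrix. Activated insulin and IGF1 receptors phosphorylate IRS1 and IRS2, which dock phosphoinositide 3-kinase (PI3K) and lead to Akt and mTOR activity. Akt keeps the FoxO transcription factors out of the nucleus, and Insr and Irs2 are known FoxO targets. In the kidney the collecting duct responds to insulin, in part through sodium transport.

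The members lie at 6 chromosomes of GRCm38.p6. Igfbp2 (chr1:72824480-72852474) and Igfbp5 (chr1:72858065-72874865) are neighbours, and Irs1 lies farther along at chr1:82233105-82291439. Igfbp7 lies at chr5:77349240-77408045, Igf1r at chr7:67952257-68233668, Insr at chr8:3150922-3279649 and Irs2 at chr8:10984681-11008929. Igfbp3 lies at chr11:7206086-7215498, Igfbp4 at chr11:99040005-99052655 and Igfbp6 at chr15:102144186-102149512. In GENCODE vM21, Igfbp7, Insr, Irs1 and Irs2 each overlap at least 1 gene on the other strand. The strand setting of the counting is not stated, so the reads of such pairs could not be told apart. The 250 bases before the annotated start are shown for Irs1 and Irs2, whose ratio differed widely between clones, and for Igfbp7, whose level varied most among the members with substantial counts. Sequences are RefSeq's, from a promoter table that matched 9 of the 10 members, all but Insr, and read 5′ to 3′ along the gene's strand. Capitals mark GC boxes (GGGCGG), binding sites of Sp family factors, and the short cAMP response element (TGACG), each on either strand.

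Irs1 (GRCm38.p6, chr1:82291440-82291689, minus strand): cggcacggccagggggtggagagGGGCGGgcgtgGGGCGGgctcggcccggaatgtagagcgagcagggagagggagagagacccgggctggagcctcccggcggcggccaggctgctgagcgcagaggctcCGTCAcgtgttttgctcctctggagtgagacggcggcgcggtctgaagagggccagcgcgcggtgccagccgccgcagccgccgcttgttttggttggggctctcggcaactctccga
Irs2 (GRCm38.p6, chr8:11008930-11009179, minus strand): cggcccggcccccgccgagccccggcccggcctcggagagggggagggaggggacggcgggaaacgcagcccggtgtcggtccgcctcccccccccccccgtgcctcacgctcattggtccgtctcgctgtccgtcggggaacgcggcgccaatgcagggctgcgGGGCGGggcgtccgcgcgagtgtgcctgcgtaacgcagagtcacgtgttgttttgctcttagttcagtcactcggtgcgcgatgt
Igfbp7 (GRCm38.p6, chr5:77408046-77408295, minus strand): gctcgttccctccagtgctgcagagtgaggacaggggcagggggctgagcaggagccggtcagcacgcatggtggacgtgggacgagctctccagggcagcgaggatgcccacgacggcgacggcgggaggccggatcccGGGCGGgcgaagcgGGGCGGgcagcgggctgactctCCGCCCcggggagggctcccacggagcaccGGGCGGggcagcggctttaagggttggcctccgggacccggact

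A GC box was found 2 times in the Irs1 window, 1 time in the Irs2 window and 4 times in the Igfbp7 window, and 32.7% of all 32851 windows of this length held at least 1. Windows of Igf1r and Igfbp2 also held GC boxes. The short cAMP element was found 1 time for Irs1 and in neither of the others, against 17.8% of all windows. The FoxO element GTAAACA, searched on both strands, was in none of the 10 windows of the 9 members, and 3.17% of all windows held it. These are matches of letters in short windows, not sites of binding.

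Counts per library ranged from 14816218 to 28084979, and counts of the 4 libraries were summed for each clone before scaling to library size as CPM, the counts of a gene per 1e+06 counts. The libraries of a clone showed technical spread, with 8 of 52 libraries deviating from the others of their clone by a median of over 0.2 on the log2 scale. These were replicate 1 of non-ciliated control AB, replicate 1 of the non-ciliated Wdr60 mutant, replicate 1 of ciliated A4, replicate 4 of ciliated G7 and all 4 libraries of the ciliated Wdr60 mutant, which split into pairs. Among the clones, non-ciliated control 2 and ciliated G7 stood apart in the epithelial genes Cdh1 and Epcam. Cdh1, which encodes E-cadherin, was at 4.26 CPM in non-ciliated control 2 and 13.7 CPM in G7, against at least 244 CPM in the other 11 clones. Epcam, an epithelial adhesion molecule, was at 2.89 and 13.5 CPM in this pair, against at least 184 CPM elsewhere. Other renal epithelial markers went both ways in G7. It was the lowest clone for Krt8, Krt18 and Krt19. It was the highest for Cdh16 (836 CPM), Pax2 (303 CPM), Pax8 (414 CPM) and Hoxb7 (84.9 CPM). The kidney factor Pax8 was detected in all clones, at 150 to 414 CPM, and Aqp2, the water channel of mature collecting duct principal cells, had 1 count in all 52 libraries. Of 13 renal epithelial markers 12 were tested, and their summed level was 1155 to 3561 CPM in non-ciliated controls, 2823 to 2852 in non-ciliated mutants, 1946 to 4912 in ciliated controls and 2173 to 4017 in ciliated mutants. Of these markers edgeR called 3 higher in ciliated controls, Cdh16 (log2 difference 1.08), Hoxb7 (0.78) and Tfcp2l1 (0.83), and 2 in ciliated mutants, Cdh16 (1.70) and Tfcp2l1 (0.97), where 8.98% and 5.32% of all genes were higher. The Cdh16 control call held without any 1 clone, while those of Hoxb7 and Tfcp2l1 were each lost without any of 5 clones. In mutants the Cdh16 call was lost without either non-ciliated mutant and that of Tfcp2l1 without any of 9 clones. The part of these markers in the state differences of Insr and the pathway lists was not tested. Summed endothelial markers reached at most 0.189 CPM and leukocyte markers 5.35 CPM. Fibroblast markers stayed at or under 5.61 CPM except for 31.7 CPM in ciliated Wdr34 mutant 3, of which 29.2 CPM was Dcn. Wdr34 and Wdr60 were detected in every clone, which does not check the labels, because the edits are missense changes.

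Most IGF binding proteins were at or near the limit of detection. Igfbp3 had 1 count in all 52 libraries, Igfbp5 had 3 and Igfbp2 had 4, and a limit of 3 counts corresponds to 0.0379 to 0.0471 CPM for a clone. Igfbp4 had 62 counts, no more than 5 in any library, spread over 30 libraries of both states. Its highest clone sum was 15 counts, in ciliated A4, and control 3 and ciliated Wdr34 mutant 3 had none. Igfbp6, an IGF2-preferring binding protein, had 112 counts in 39 libraries, with clone levels between 0.0252 and 0.243 CPM. Igfbp6 was the only gene among these 5 with enough counts for the test, and no difference in it was called between states or genotypes. At this depth differences in the other 4 genes were not detectable. In bulk RNA, fewer cells with a transcript and less of it per cell cannot be told apart.

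Igfbp7 was the only binding protein with substantial counts, with 180 to 3270 counts in every library. In non-ciliated controls it measured 31.5 CPM in AB, 65.7 in control 1, 32.7 in control 2 and 150 in control 3. In the non-ciliated mutants it measured 60.03 CPM in the Wdr34 mutant and 11.7 in the Wdr60 mutant, the lowest level of the 13 clones. In ciliated controls it measured 198 CPM in D8, the highest of the 13 clones, 123 in H12, 141 in A4 and 20.3 in G7. The ciliated mutants measured 121 CPM in Wdr34 mutant 1, 39.7 in Wdr34 mutant 3 and 112 in the Wdr60 mutant. High and low clones occurred in both states, and all groups overlapped. The difference between states was 0.78 (SE 0.73) on the log2 scale in controls (edgeR quasi-likelihood test, adjusted p = 0.48) and 1.34 (SE 0.98) in mutants (edgeR, adjusted p = 0.374). The SD of log2 levels was 1.06 among the 4 non-ciliated and 1.47 among the 4 ciliated control clones. This spread was larger than that of 92.6% and 94.6% of the 13994 tested genes, respectively. Within G7, the libraries lay at 17.9 to 22.6 CPM, below every library of the other ciliated controls. In the ciliated Wdr60 mutant they ran from 70.0 to 143 CPM, with replicates 3 and 4 above replicates 1 and 2.

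Insr, the insulin receptor, was the only member that edgeR's quasi-likelihood test on clone sums called between the states. The insulin receptor mRNA was higher in ciliated cells, by 1.36-fold in controls and 1.42-fold in mutants, and no clone sum of the non-ciliated groups reached that of any ciliated clone. In non-ciliated controls it measured 68.6 CPM in AB, 66.7 in control 1, 81.2 in control 2 and 73.8 in control 3, with a mean of 72.6 ± 6.49 (SD, n = 4). In ciliated controls it measured 105 CPM in D8, 88.9 in H12, 108 in A4 and 92.6 in G7, with a mean of 98.6 ± 9.31 (SD, n = 4). The log2 difference was 0.44 (SE 0.12) with an adjusted p of 0.0246 in edgeR's quasi-likelihood test. Mutant clones had 60.4 CPM in the Wdr34 and 73.9 in the Wdr60 non-ciliated mutants against 104, 98.8 and 84.3 CPM in ciliated Wdr34 mutant 1, Wdr34 mutant 3 and the Wdr60 mutant. The non-ciliated Wdr34 mutant and the ciliated Wdr60 mutant lay below the controls of their states, and the other 3 mutant clones lay within their range. Their log2 difference was 0.51 (SE 0.15) with an adjusted p of 0.0499 in edgeR. Single libraries did overlap, since the ciliated Wdr60 mutant had 106 and 97.5 CPM in replicates 1 and 2 but 70.1 and 69.0 CPM in replicates 3 and 4.

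In controls, 1 of the 6 tested members was called, where 18.4% of all tested genes were called, 8.98% higher and 9.46% lower in ciliated cells. In mutants it was again 1 of 6, against a background of 12.9%, with 5.32% higher and 7.53% lower. Scaling by total counts alone changed the share of higher genes among those called from 48.7% to 54.7% in controls and from 41.4% to 56.2% in mutants, and moved the median of all genes in mutants from 0.04 to 0.18 on the log2 scale. Clone values did not overlap between states for 21.5% of all genes in controls and 52.2% in mutants, so separation of 2 from 3 mutant clones was common. The Insr call sat close to the threshold. limma's voomLmFit on libraries, which estimates the correlation within a clone, did not call it in controls (adjusted p = 0.0766) or mutants (0.142), and DESeq2 on clone sums called it in both (adjusted p = 0.00503 and 0.017, with the share of all genes called not given here). In controls its log2 difference was 0.46 (SE 0.12) in edgeR with an adjusted p of 0.0256 without the 4 deviating libraries of AB, the non-ciliated Wdr60 mutant, A4 and G7, and 0.51 (SE 0.13) with an adjusted p of 0.0213 without control 2 and G7. In edgeR the control call was lost without AB (adjusted p = 0.0614), control 1 (0.0796), control 3 (0.0586), D8 (0.0507) or A4 (0.0678), with log2 differences of 0.38 to 0.50 over all clones left out. The mutant call was lost in edgeR without any of 10 clones, at adjusted p from 0.0535 without H12 to 0.366 without the non-ciliated Wdr34 mutant; it stood without control 2, G7 or the ciliated Wdr60 mutant. Without the deviating libraries its adjusted p in edgeR was 0.0619.

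**Figure D1:**
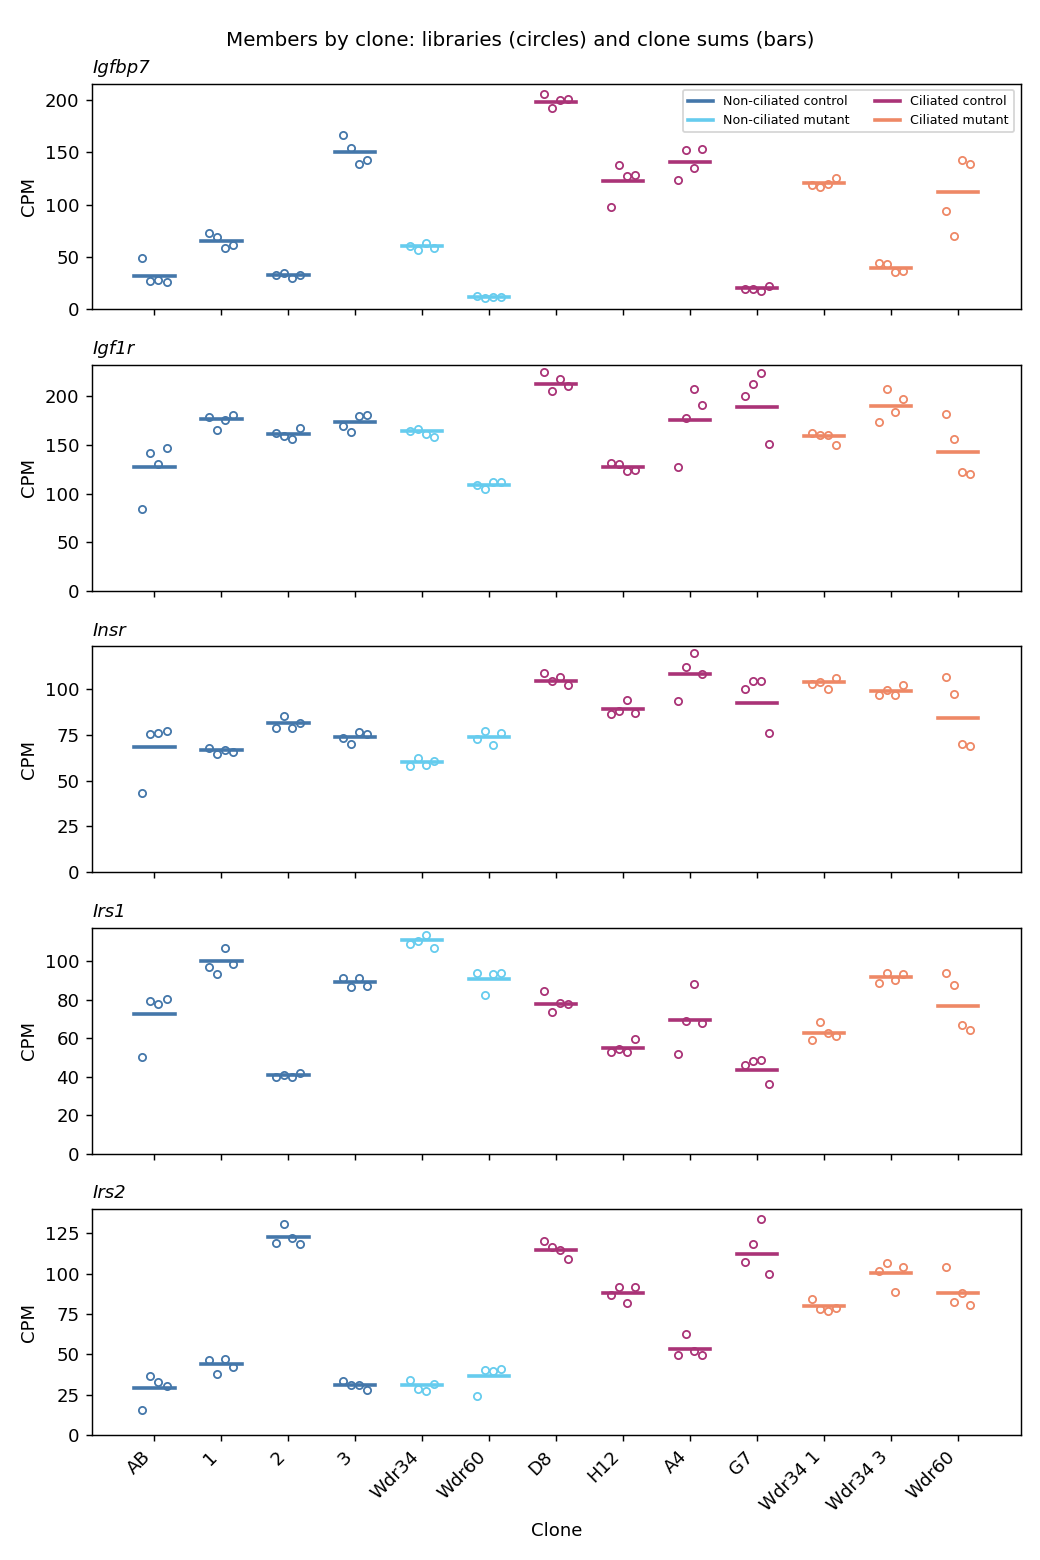
CPM of Igfbp7, Igf1r, Insr, Irs1 and Irs2 (vertical axes, each from 0) in the 13 clones (horizontal axis), with open circles for the 4 technical libraries, bars for the clone sums and colours for state and genotype. Insr clone sums lie at 60.4 to 81.2 CPM in non-ciliated and 84.3 to 108 CPM in ciliated clones, while Igfbp7 runs from 11.7 to 198 CPM with both states mixed.

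Igf1r, the main signalling receptor for IGF1 and IGF2, was abundant in every clone and differed little between states. It measured 127, 177, 161 and 174 CPM in the non-ciliated controls AB, 1, 2 and 3, and 213, 127, 176 and 189 CPM in the ciliated controls D8, H12, A4 and G7. The non-ciliated Wdr34 and Wdr60 mutants had 164 and 109 CPM, and the ciliated Wdr34 mutant 1, Wdr34 mutant 3 and Wdr60 mutant had 159, 190 and 143 CPM. All groups overlapped. The state difference was 0.14 (SE 0.19) in controls and 0.26 (SE 0.24) in mutants on the log2 scale, with adjusted p of 0.63 and 0.485 in edgeR. In AB, replicate 1 was at 84.6 CPM against 131 to 147 CPM in its other libraries. Igf2r, the receptor that takes up IGF2 without signalling through IRS proteins, was at 82.6 to 167 CPM and was not called between states, and Insrr, the insulin receptor-related receptor, had 1 count in all libraries.

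The adaptors Irs1 and Irs2, which couple both receptors to PI3K, were not called between states, but their ratio differed widely between clones. Irs2 measured 29.4, 43.8 and 30.8 CPM in the non-ciliated controls AB, 1 and 3 but 123 CPM in control 2, the highest of all 13 clones. The non-ciliated Wdr34 and Wdr60 mutants had 30.7 and 36.6 CPM. Ciliated controls had 114 CPM in D8, 87.9 in H12, 53.2 in A4 and 112 in G7, and the ciliated mutants had 79.9 in Wdr34 mutant 1, 100.3 in Wdr34 mutant 3 and 88.0 in the Wdr60 mutant. All 7 ciliated clones thus lay above 5 of the 6 non-ciliated clones, and control 2 lay above them all. With all clones the difference was 0.70 (SE 0.42) in controls and 1.41 (SE 0.57) in mutants, a 2.66-fold difference for the latter, and neither was called by edgeR (adjusted p = 0.268 and 0.117). In mutants the clones of the states did not overlap, which held for 52.2% of all tested genes. Without control 2, the control difference was 1.41 (SE 0.26, adjusted p = 0.00502) and the mutant difference 1.41 (SE 0.31, adjusted p = 0.0157) in edgeR. Without control 2 and G7 together, the differences were 1.282 (SE 0.26, adjusted p = 0.00952) and 1.41 (SE 0.30, adjusted p = 0.0116) in edgeR, and 2 members, Insr and Irs2, were called in each, against 20.8% of the genes tested there in both comparisons. This omission was chosen after the data were seen. With all clones, limma's voomLmFit called Irs2 in place of Insr in both comparisons (adjusted p = 0.0167 and 0.00754), and DESeq2 called Irs2 beside Insr in mutants (adjusted p = 0.0493). The share of all genes that DESeq2 called is not given here, so its calls stand without a background. Cdh1 and Epcam were lowest in control 2, and their part in its Irs2 level was not tested.

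In Irs1 the pair of clones with low Cdh1 stood at the other end. The non-ciliated controls AB, 1 and 3 had 72.6, 99.9 and 89.0 CPM, while control 2 had 40.6 CPM, the lowest of the 13 clones. The non-ciliated Wdr34 and Wdr60 mutants had 111 and 91.0 CPM. Ciliated controls had 77.8 CPM in D8, 54.8 in H12, 69.4 in A4 and 43.3 in G7, and the ciliated mutants had 62.8, 91.6 and 77.0 CPM in Wdr34 mutant 1, Wdr34 mutant 3 and the Wdr60 mutant. Groups overlapped, and the state difference was -0.30 (SE 0.26, adjusted p = 0.454) in controls and -0.39 (SE 0.34, adjusted p = 0.458) in mutants in edgeR. The ratio of Irs2 to Irs1 counts was 0.277 to 0.439 in 5 non-ciliated clones and 3.03 in control 2. In ciliated clones it was 0.766 in A4, 1.10 to 1.61 in 5 clones, and 2.59 in G7. The highest ratios therefore belonged to the pair of clones with the lowest Cdh1 and Epcam, 1 from each state. Whether this pair derives from 1 parental clone is not given in the labels. If it does, the 2 ratios are those of 1 clone seen in both states.

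**Figure D2:**
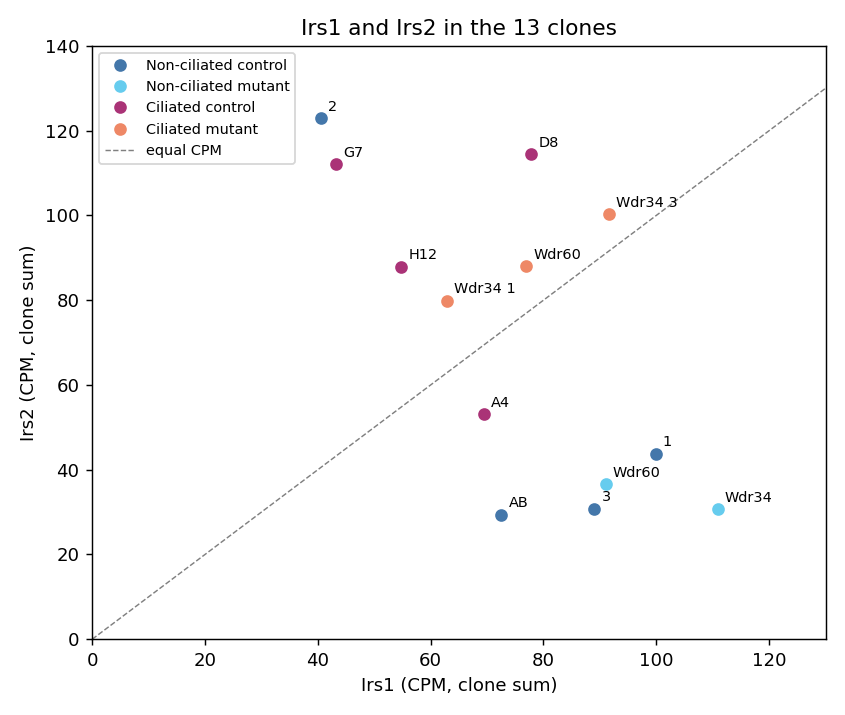
Irs2 against Irs1, both in CPM of clone sums, for the 13 clones coloured by state and genotype, with a dashed line of equal CPM. Of the non-ciliated clones 5 lie below the line and control 2 lies at its upper left with 123 CPM of Irs2 and 40.6 of Irs1, next to ciliated G7.

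Levels of different genes were compared as CPM per kilobase of merged exons. Igfbp7 had the highest median level of the members over the 13 clones, at 54.3 CPM per kilobase, with a range of 9.66 to 164. Irs2 followed at 12.6 (4.65 to 19.5), Igf1r at 9.78 (6.51 to 12.7), Irs1 at 8.42 (4.44 to 12.1) and Insr at 6.13 (4.39 to 7.88) CPM per kilobase. Neighbours in this order overlapped in range over the clones, and their order within each clone is not given. Igfbp6 was at 0.0839 and Igfbp4 at 0.0103 CPM per kilobase. Among control clones Insr was the steadiest of the expressed members, with an SD of log2 levels of 0.13 in non-ciliated and 0.14 in ciliated ones. Igf1r had 0.22 and 0.32, Irs2 0.96 and 0.51, and Irs1 0.58 and 0.38. Over all 13 clones the SD was 0.27 for both Igf1r and Insr.

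Mutants were compared with controls within each state, the comparison the study was designed for. The study itself reported genes higher and lower in mutants of both states, and used fewer control clones for ciliated cells. The calls below are those of the fit described here, not the study's. No member was called in ciliated cells, where 0% of genes were called by edgeR and 272 had an unadjusted p under 0.05, or in non-ciliated cells, where again 0% were called and 516 had an unadjusted p under 0.05. None of the 6 tested members was among either set. Irs1 differed by 0.33 (SE 0.28) in ciliated and 0.42 (SE 0.32) in non-ciliated mutants on the log2 scale, and Igfbp7 was -0.41 (SE 0.79) and -0.96 (SE 0.93). Igfbp6, with few counts, differed by 1.32 (SE 0.68) and 0.19 (SE 0.75). Igf1r differed by -0.10 (SE 0.20) and -0.23 (SE 0.23), and Insr by -0.05 (SE 0.13) and -0.11 (SE 0.14). Irs2 differed by -0.04 (SE 0.45) in ciliated and -0.75 (SE 0.53) in non-ciliated cells, where it was -0.043 (SE 0.30) without control 2. Clone values of mutants and controls overlapped for all 6 tested members in both states, against 2.1% of all genes that did not overlap in ciliated and 14.1% in non-ciliated cells. The mutant effect was not shown to differ between states for any member, with 0% of all genes called by edgeR for the interaction and 136 at an unadjusted p under 0.05. 

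Each mutant clone was then set against the 4 controls of its state, on the assumption that it varied like the control clones. No member was called in any of the 5 comparisons. Of all genes edgeR called 0% in 4 of them and 0.00715%, or 1 gene, in ciliated Wdr34 mutant 3. Igfbp7 differed by -2.58 (SE 1.33) in the non-ciliated Wdr60 mutant and -1.60 (SE 1.24) in ciliated Wdr34 mutant 3, and Igfbp6, with few counts, by 1.72 (SE 0.92) in the ciliated Wdr60 mutant. The 52 libraries were also taken as samples, which counts technical libraries as replicates. There edgeR called Igfbp7 and Igf1r in the non-ciliated Wdr60 mutant (13.8% of genes called). It called Igfbp7 and Irs1 in ciliated Wdr34 mutant 3 (26.8%). The same fit called Insr and Irs2 between states in controls, with 61.9% of genes called, and Insr, Irs2 and Igfbp7 in mutants, with 60.4%.

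**Figure D3:**
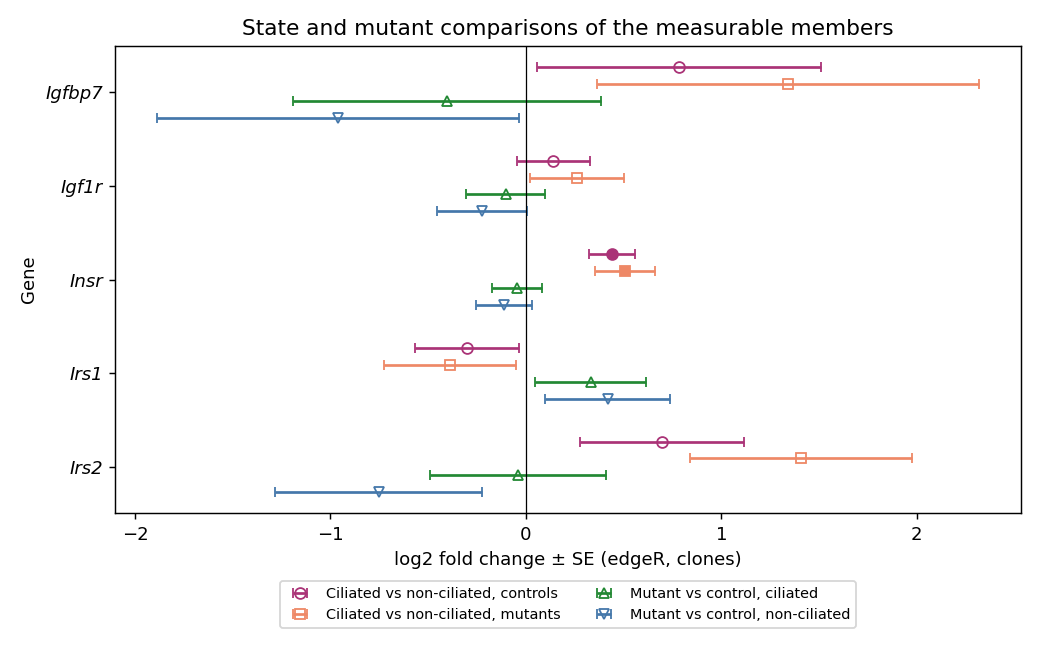
log2 fold changes with SE (horizontal axis) of 5 members (vertical axis) in the state comparisons of controls and mutants and in the mutant comparisons of ciliated and non-ciliated cells, from edgeR on clone sums, filled where called. Only Insr is filled, at 0.44 in controls and 0.51 in mutants, and the error bars of Igfbp7 are the widest.

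Insulin and IGF transcripts were scarce. Of 12 ligands and secreted regulators 6 were tested, and none was called by edgeR in either state comparison. No median is given, because Igf1 had at most 2 counts in any non-ciliated clone. Ins1 and Ins2, the insulin genes, had 0 counts in all libraries. Igf1 had 130 of its 165 counts in ciliated Wdr34 mutant 3 (1.73 CPM). Igf2 had 18.5 CPM in that clone, 3.52 in non-ciliated control 2, 2.64 in G7, 1.73 in D8 and at most 0.436 CPM in the other 9 clones. Igfbp1, the liver-type IGF binding protein beside Igfbp3 in the genome, was also highest in ciliated Wdr34 mutant 3, at 2.84 CPM. Htra1, a protease that cleaves IGF binding proteins, was at 38.1 to 311 CPM, and Stc2, an inhibitor of the IGFBP protease PAPP-A, at 0.547 to 64.7 CPM with its top in control 2.

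Downstream of the receptors, several FoxO genes were higher in ciliated cells. Of 16 FoxO factors and known targets 13 were tested, and in controls 5 were higher in ciliated cells and 0 lower, where 8.98% of all genes were higher and 9.46% lower. The median log2 difference of the list was 1.07 against 0.02 for all genes. Foxo3, a FoxO factor, rose by 1.33 (SE 0.16, adjusted p = 0.00136) and Foxo1, the main insulin-regulated FoxO factor, by 0.97 (SE 0.19, adjusted p = 0.00769) in edgeR. Foxo3 measured 19.6 to 24.1 CPM in non-ciliated and 44.5 to 66.1 CPM in ciliated controls, and Foxo1 60.5 to 109 and 135 to 176 CPM, with no overlap. Of all tested genes, 21.5% likewise did not overlap between the states in controls. Txnip, an arrestin-like inhibitor of glucose uptake, rose from 42.3 to 95.5 CPM up to 243 to 557 CPM, a log2 difference of 2.73 (SE 0.35, adjusted p = 0.0015 in edgeR). Ccng2, an atypical cyclin, rose by 1.07 (SE 0.28, adjusted p = 0.0246) and Fbxo32, a ubiquitin ligase subunit known as atrogin-1, by 1.27 (SE 0.41, adjusted p = 0.0497) in edgeR. In mutants 2 of 13 were higher, against 5.32% of all genes, Foxo3 by 1.02 (SE 0.21) and Txnip by 3.24 (SE 0.49), with adjusted p of 0.0138 and 0.00516 in edgeR and a list median of 1.02 against 0.04. In controls the calls of Foxo1, Foxo3 and Txnip held in each of 13 fits without 1 clone, while Ccng2 was lost without control 1, control 3 or D8 and Fbxo32 without any of 9 clones. In mutants edgeR's Foxo3 call was lost without either non-ciliated mutant (adjusted p up to 0.164) and that of Txnip without the non-ciliated Wdr34 mutant (0.0746). Without control 2 and G7, 5 FoxO genes were higher in controls, with Foxo6 in place of Fbxo32, and 3 in mutants. In that fit 1356 and 1325 of all 13898 genes were higher. Without the deviating libraries 4 and 2 FoxO genes were higher, against 1093 and 583 of 13985 genes.

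Of 14 genes of the mTOR complexes, which couple growth factor signals to protein synthesis, all were tested, and in controls 3 were higher and 0 lower, where 18.4% of all genes were called in either direction and 8.98% higher. The list's median was 0.11 against 0.02 for all genes. Deptor, an inhibitory partner of mTOR, rose by 2.83 (SE 0.40, adjusted p = 0.00227 in edgeR), from 3.79 to 8.55 CPM in non-ciliated to 28.5 to 68.8 CPM in ciliated controls. Tsc1, part of the complex that restrains mTORC1, rose by 0.47 (SE 0.12, adjusted p = 0.0196) and Rictor, a subunit of mTORC2, by 0.75 (SE 0.19, adjusted p = 0.0208) in edgeR. In mutants only Deptor was called, by 3.39 (SE 0.56, adjusted p = 0.00655 in edgeR), and this was lost without the non-ciliated Wdr34 mutant (adjusted p = 0.106). Of the control calls, Deptor held in all 13 fits without 1 clone, Rictor was lost without control 1 or A4 and in voomLmFit, and Tsc1 without AB, control 1 or G7. The 3 and 1 calls were the same in number without the deviating libraries, where 1093 and 583 of 13985 genes were higher. Without control 2 and G7 they were 3 and 1 higher with 1 lower in controls. In that fit 1356 and 1325 of 13898 genes were higher, and 1535 were lower in controls.

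Of 15 PI3K and Akt genes, all tested, 1 was higher in controls, the kinase Pdpk1 that activates Akt, by 0.41 (SE 0.12, adjusted p = 0.0385 in edgeR), and 0 in mutants, where 8.98% and 5.32% of all genes were higher, so the list held no more calls than the background. Its medians were 0.16 and 0.35, against 0.02 and 0.04 for all genes. The Pdpk1 call was lost in voomLmFit, without any of 10 clones, without the deviating libraries, and without control 2 and G7. In mutants without control 2 and G7, 2 genes of the list were higher and 1 lower, against 1325 and 1572 of all 13898 genes. Of 15 further adaptors and receptor regulators 12 were tested, and none was called by edgeR in either comparison. Their medians were 0.28 and 0.44 against 0.02 and 0.04 for all genes. Without control 2 and G7, 2 of 11 were higher in each, against 1356 and 1325 of all 13898 genes. Of the 3 Igf2 mRNA binding proteins, Igf2bp1 was 0.62 lower in ciliated controls (log2 difference -0.62, SE 0.17, adjusted p = 0.0248 in edgeR), a call lost without control 1, control 3, H12 or G7, or without control 2 and G7, and 0 were called in mutants, with list medians of -0.53 and -0.43. Of 6 proliferation genes 3 were lower in ciliated controls and 2 in ciliated mutants, where 9.46% and 7.53% of all genes were lower. The list medians were -0.35 and -0.44, against 0.02 and 0.04 for all genes. Bub1, a spindle checkpoint kinase, fell by 0.94 in controls and 1.13 in mutants, and its control call held without any 1 clone, whereas those of Ccnb1 and Top2a were lost without any of 8 and 10 clones, and that of Ccnb1 also in voomLmFit. In mutants edgeR's Bub1 call was lost without the non-ciliated Wdr34 mutant (adjusted p = 0.0768), and that of Ccnb1 without any of 9 clones and in voomLmFit. Without the deviating libraries, 1 proliferation gene was lower in each comparison, against 1158 and 848 of 13985 genes. With scaling by total counts it was also 1 in each, against 1141 and 745 of 13994 genes. Counts differed in limma's voomLmFit, which called 27% of all genes in controls and 21.7% in mutants. There 7 of 12 FoxO genes were higher in controls, and 6 were higher and 1 lower in mutants. Of 11 adaptors 3 were higher in controls and 2 in mutants, and of 5 ligands and secreted regulators none in controls and 1 higher and 1 lower in mutants. Of the PI3K and Akt genes 1 was higher in controls, and 1 was higher and 1 lower in mutants. The mTOR list had 2 higher in controls and 1 in mutants, and the proliferation list 2 and 1 lower. No gene of these lists was called by edgeR in mutants against controls in either state.

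**Figure D4:**
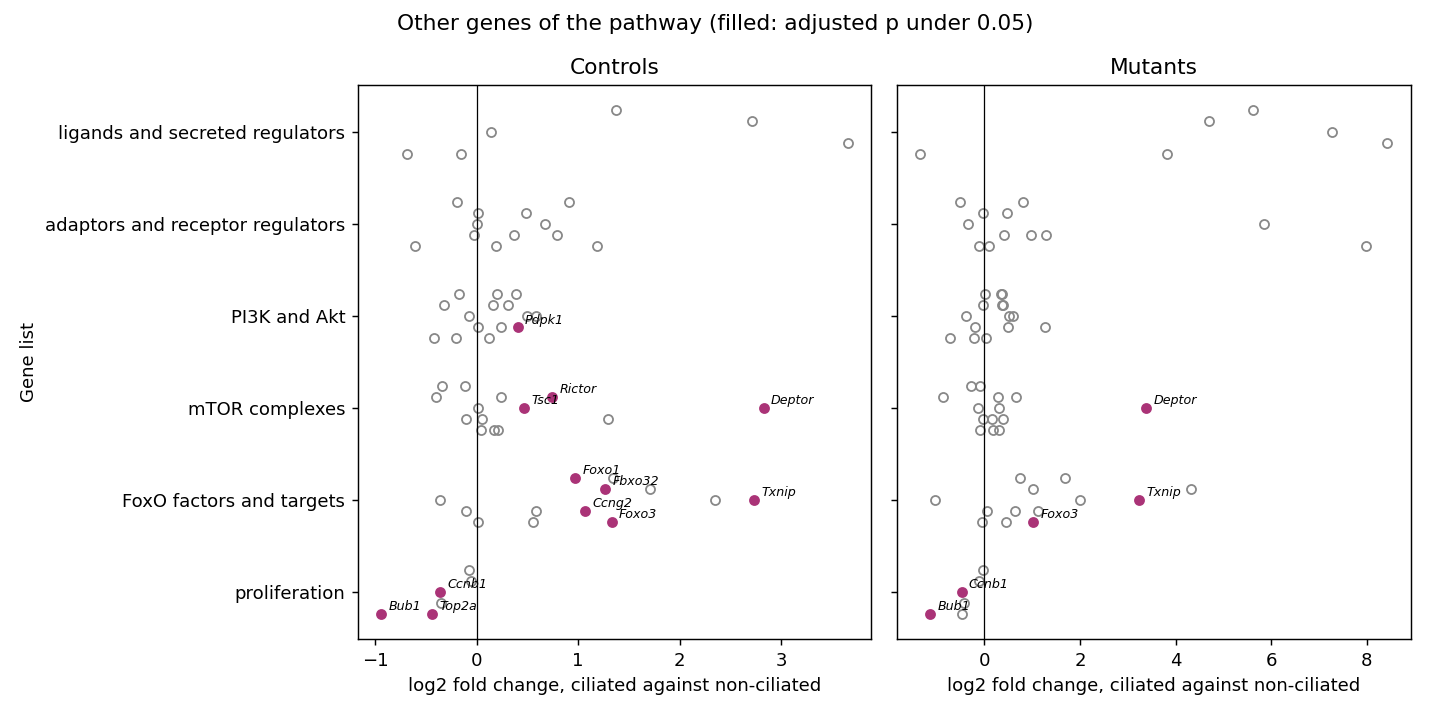
log2 fold changes of ciliated against non-ciliated cells (horizontal axes, of different range) for the tested genes of 6 pathway lists (vertical axis) in controls and mutants, filled and named where the adjusted p was under 0.05. In controls 5 FoxO genes and 3 mTOR genes are filled to the right of 0 and 3 proliferation genes to the left. Open points of genes with 0 counts in a group, such as Igf1 in mutants, are fitted values and no bounds.

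The genes whose levels followed each member most closely were sought among the 13993 other tested genes, by the correlation r of log2 CPM over the 13 clones after subtraction of the mean of each state. Tmod3 (r = 0.92) was nearest to Igfbp7, Exoc4 (r = 0.96) to Igf1r, Mxd1 (r = 0.86) to Insr, Dhx37 (r = 0.94) to Irs1 and Efemp2 (r = 0.95) to Irs2. These are the highest of many values over few clones that share libraries and depth, and are given as a description.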

How the data were processed

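RNA of 13 clones was sequenced in 52 libraries, 4 technical replicates for each clone. The authors used Rsubread for alignment to GRCm38/mm10 and its featureCounts function for counts per gene symbol, in R v3.4.4, and DESeq2 v1.18.1 for their own tests. The deposited tables hold these counts as whole numbers that have not been scaled. The strand setting and the treatment of multi-mapping reads are not given in the sources used here.

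Counts of the 4 libraries of a clone were summed, since libraries are technical replicates, and p-values measure the spread between clones. Genes were filtered with filterByExpr, scaled by TMM, and tested in one fit of all 13 clones with edgeR 4.0.16 (glmQLFit, glmQLFTest, 2-sided) in R 4.3.3, in 4 groups of state and genotype, with Benjamini-Hochberg adjustment over 13994 genes. A gene was called at an adjusted p under 0.05, with no limit on fold change. CPM were computed from clone sums with TMM. The script was tested on simulated data.

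Groups came from the sample labels, and no fit paired lines between states. Alternatives covered libraries as samples, a replicate block, limma 3.58.1 (voomLmFit), DESeq2 1.42.0, other scalings and filters, and omission of clones or libraries. Libraries of a clone were not identical (0 of 78 pairs). All 10 members are named, and up to 4 genes of each list by the smallest p. Fbxo32, Igf2, Stc2, Igf2r, the genes at 0 or 1 count and the named markers were named after their values were seen. The members and lists were chosen with earlier results of these data known. Sequences and coordinates are from RefSeq GRCm38.p6 and exon lengths from GENCODE vM21.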

Additional observations from a re-analysis of the deposited data

Results flagged for a closer look

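Among 65 sets of 4 libraries (5 members in 13 clones), 7 held a library whose gap to its nearest neighbour took most of the set's range by Dixon's test, and chance alone flags about 1 set in 20. Among the 10 sets of 4 control clones none did. Non-ciliated control AB gave 3 of them, all in replicate 1: Insr at 43.0 CPM against 75.3 to 76.9, Irs1 at 50.4 CPM against 77.6 to 80.4, and Igfbp7 at 49.0 CPM against 25.8 to 27.9. The non-ciliated Wdr60 mutant gave 2, Irs2 at 24.2 CPM in replicate 1 against 39.6 to 41.1 and Irs1 at 82.7 CPM in replicate 2 against 93.5 to 94.0. Insr in G7 was at 75.8 CPM in replicate 4 against 100.02 to 105, and Igf1r in ciliated Wdr34 mutant 1 was at 150.4 CPM in replicate 4 against 160.3 to 162.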

How the results depend on the processing

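In controls 1 member was called between states, and the call count differed from this in 13 of 30 alternatives. The Insr call itself was lost in 9 of 30 alternatives in controls and 18 of 30 in mutants, and voomLmFit, with a count of 1 in each, called Irs2 in its place. In controls the count was 2 with libraries as samples, 2 with libraries as samples and a replicate block, 2 without control 2 and G7, 0 with a log2 fold change of at least 1 and 0 at an adjusted p under 0.01, and it ranged from 0 to 2 both without 1 clone and without 1 replicate number. In mutants the count of 1 differed in 21 of 30 alternatives. It was 3 with libraries as samples, 3 with the replicate block, 2 with DESeq2 on clone sums, 2 without control 2 and G7, 0 with a filter of 1 count in any clone, 0 without the deviating libraries, 0 with the fold limit and 0 at the stricter p, and it ranged from 0 to 2 without 1 clone and from 0 to 1 without 1 replicate number. With libraries as samples, 61.9% of all genes were called in controls and 60.4% in mutants. Without control 2 and G7 it was 20.8% in each. Shares for the replicate block, DESeq2, the other filters, the fold limit, the stricter p and single omissions are not given here. Those counts therefore stand without a background. In the non-ciliated Wdr60 mutant and in ciliated Wdr34 mutant 3, 2 members were called with libraries as samples (13.8% and 26.8% of all genes) and 2 with the replicate block. In all 30 alternatives 0 members were called between mutants and controls within a state. Replicate numbers did not pair libraries, since deviations of libraries with the same number had a median correlation of -0.00422 and those with different numbers 0.00168, so the block carries no pairing. Between states Insr, Irs2 and Igfbp7 kept a positive and Irs1 a negative difference in all alternatives, while Igf1r in mutants ranged from -0.0075 to 0.59 without 1 clone. Small mutant effects changed sign. Irs2 in ciliated cells was 0.012 with voomLmFit, 0.074 without control 2 and G7, and -0.23 to 0.082 without 1 clone. Insr in ciliated cells ranged from -0.11 to 0.041 without 1 clone and from -0.09 to 0.02 without 1 replicate number. In non-ciliated cells without 1 clone, Igf1r ranged from -0.55 to 0.042 and Insr from -0.26 to 0.024. The cause of these changes was not tested. Igfbp2, Igfbp3, Igfbp4 and Igfbp5 are limited by depth, with at most 5 counts in a library. The omission of control 2 and G7, or of the deviating libraries, was chosen after seeing the data.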
